A study of Canis lupus familiaris with 2 samples.

Results

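CpG-poor windows with low methylation inside otherwise methylated sequence were described in MDCK cells, a line of dog kidney epithelium. Whole-genome bisulfite sequencing was done on 1 library of each of 2 cultures. The TGF-beta culture was treated for 30 days with TGF-beta at 5 ng/ml and is labelled mesenchymal. The control culture was untreated, was kept for the same 30 days in parallel and is labelled epithelial. Both were grown in DMEM with serum, and no other agent or genetic change is given for either. The labels do not say whether the cultures were clonal or pooled, and expression was not measured in these files, so the labelled phenotypes were not checked against marker genes.

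The windows were chosen by values of the control library. Methylated and unmethylated calls of both strands were summed at each CpG site, and a site was kept with 5 or more calls in both libraries. A window of 1000 bp on chromosomes 1 to 38 was taken when it held 5 to 19 listed sites, 5 or more kept sites and a control level under 30%. A window's level is the share of methylated calls among all calls at its kept sites. The surrounding 100 kb window had to be at 70% or more in the control, and no window of 40 or more listed sites could lie within 2000 bp. This rule gave 7543 windows of 1497941 with enough kept sites, and of 439529 that met it apart from the window's own control level.

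CpG methylation is the usual state of mammalian DNA outside CpG islands, the CpG-dense stretches at many gene starts. Short CpG-poor stretches of low methylation away from islands are commonly found at enhancers and other sites bound by transcription factors, and many of them differ between cell types. TGF-beta is a secreted factor under which many epithelial cells lose their junctions and become mesenchymal. Chromatin and factor binding were not measured here, positions are in canFam3, and neither a sequence nor a gene annotation of that build is used here. The windows are therefore described by their methylation and position and are not called enhancers.

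The TGF-beta library held 1019766599 calls and the control library 656122583. In the low windows the median number of calls per kept site was 37.8 in the TGF-beta library and 27.8 in the control, over a median of 8 kept sites. The TGF-beta library had 1.45 times as many calls as the control in these windows, against 1.41 times over all windows that met the rule apart from the level. Mitochondrial DNA, which bounds failed conversion from above, stood at 0.329% in the TGF-beta library and 0.211% in the control. With 1 library per group, no difference has a replicate check. Intervals in brackets are exact 95% binomial (Clopper-Pearson) intervals and cover counting error only.

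The windows were short dips in methylated surroundings. In the central 250 bp bins the summed level was 21.0% and 21.3% in the TGF-beta library, and 14.5% and 14.6% in the control, whose calls chose the windows. Between 500 and 750 bp after the centre it was 56.6% in the TGF-beta library and 54.0% in the control. Between 1500 and 1750 bp after it the level was 76.5% in the TGF-beta library and 75.3% in the control. Most of the return to the surrounding level thus lay within 1000 bp of the centre, in the library that chose the windows and in the other. The rule asked for a low 1000 bp window inside a methylated 100 kb window of the control. The dip and its step near the window edge were therefore partly set by it. CpG sites were no denser in the dip than beside it, at 9.81 listed sites per kb at the centre and 9.84 between 1500 and 1750 bp. The rule limits the listed sites in the window and bars dense windows within 2000 bp, so this evenness was partly set by it. Between 4750 and 5000 bp after the centre the density was 12.0 listed sites per kb.

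**Figure D1:**
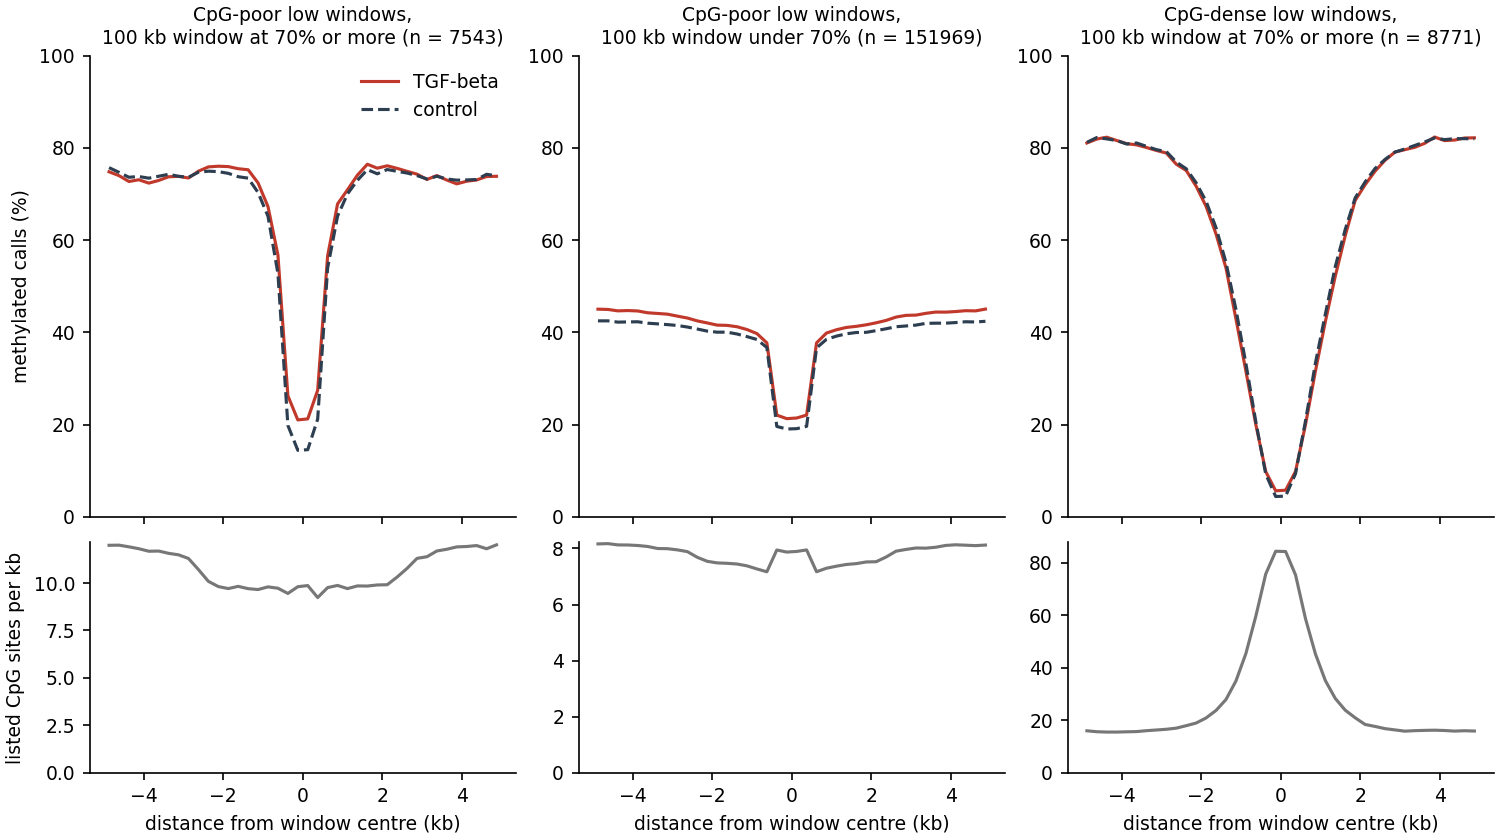
Summed methylation level (upper panels, %) and listed CpG sites per kb (lower panels, scales differ) by distance from the window centre in bins of 250 bp, for the 7543 low windows (left) and the 2 sets set beside them; red lines are TGF-beta, dashed dark lines control. The low windows dip to 21.0% in TGF-beta and 14.5% in the control with no rise in CpG density, which the rule limits in and near them. CpG-dense windows hold 84.4 sites per kb at their centre.

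Both kinds of window set beside them had a different shape. CpG-poor windows that met the rest of the rule in a 100 kb window under 70% numbered 151969. At their centre they stood at 21.3% in the TGF-beta library and 19.1% in the control, and 5000 bp away they reached only 45.1% and 42.5%. CpG-dense windows under 30% in a 100 kb window of 70% or more numbered 8771. These stood at 5.67% in the TGF-beta library and 4.44% in the control at their centre, and were still at 61.0% and 62.3% between 1500 and 1750 bp away. The CpG-poor dips in methylated domains were thus shallower and narrower than the CpG-dense ones. No test is given for these contrasts, since the rules fix the level and density of each set. The rules also bar dense windows within 2000 bp of the CpG-poor dips but not of the CpG-dense ones. The contrast in width was therefore partly set by the rules.

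The low stretch around each window was measured as the longest run of adjacent kept sites under 30% that touched the window. Its median width was 430 bp in the TGF-beta library (quartiles 199 and 748.5), over 5 sites. In the control it was 527 bp (quartiles 303 and 857), over 6 sites. A stretch of 2000 bp or more was found around 186 windows in the TGF-beta library and 253 in the control. The control calls chose the windows, so the wider stretches in the control were partly set by the rule. With the same rule applied to the TGF-beta library, the median width was 455 bp in the TGF-beta library and 460 bp in the control. Around CpG-dense low windows the median was 1367 bp in the TGF-beta library and 1516 bp in the control. In the control, the stretch of 427 windows (5.66%) ran into a window of 20 or more listed sites, and that of 20 windows into one of 40 or more.

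Most of the low windows stood alone. They formed 6884 runs of adjacent windows, of which 6319 held 1 window, 490 held 2 and 75 held 3 or more. The median distance to the next low window was 17000 bp, and that to the nearest window of 40 or more listed sites was 21000 bp. Of 8552 100 kb windows at 70% or more in the control, 4052 held at least 1 low window and 826 held 3 or more. Among 4624 windows with enough kept sites on each side, both neighbours were at 70% or more in 1649 (35.7%) in the TGF-beta library and in 1439 (31.1%) in the control. At least 1 neighbour was under 30% in 1022 (22.1%) in the TGF-beta library and in 1114 (24.1%) in the control.

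The longest run was an unmethylated CpG-poor stretch on chromosome 9 from 34335001 to 34346000, with 11 adjacent windows and 97 kept sites. Its level was 8.72% (7.80 to 9.70, 3487 calls) in the TGF-beta library and 3.42% (2.80 to 4.14, 3009 calls) in the control. The 8 windows from 34337001 to 34345000 lay between 0% and 1.55% in the TGF-beta library and between 0% and 1.00% in the control. The libraries differed at the ends of the run. The last window, from 34345001, was at 54.5% in the TGF-beta library and 27.5% in the control, and the first, from 34335001, was at 16.7% and 11.0%. The next window outward, from 34346001, was at 91.6% in the TGF-beta library and 81.1% in the control. The low stretch of adjacent kept sites measured 9721 bp in the TGF-beta library and 10032 bp in the control. The nearest window of 40 or more listed sites was 41 kb away.

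**Figure D2:**
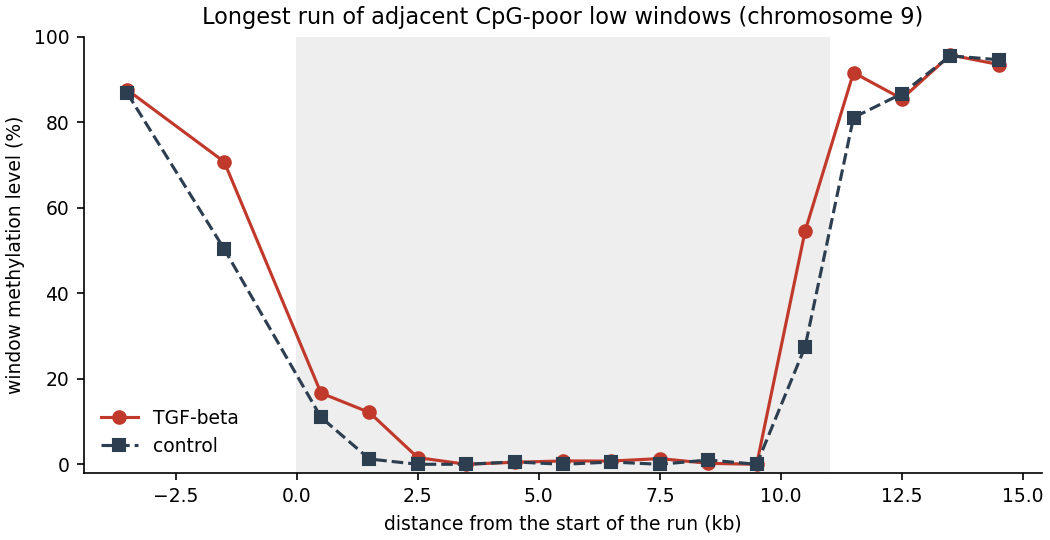
Methylation level (%) of 1000 bp windows with 5 or more kept sites along the run on chromosome 9, by distance from its start in kb; red circles are TGF-beta, dark squares control, and grey marks the 11 windows of the run. The inner 8 windows are at 1.55% or less in both libraries, and the last window of the run is at 54.5% in TGF-beta and 27.5% in the control.

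The next longest runs held fewer windows. On chromosome 5 from 618001 to 623000, 5 windows stood at 21.9% (19.5 to 24.3, 1171 calls) in the TGF-beta library and 14.8% (12.9 to 17.0, 1165 calls) in the control. Single windows there ranged from 12.2% to 46.2% in the TGF-beta library and from 5.48% to 28.0% in the control. The next length, 4 windows, was shared by 9 runs. The one with most kept sites lay on chromosome 7 from 64479001 to 64483000 and stood at 9.19% (7.72 to 10.8, 1382 calls) in the TGF-beta library and 3.31% (2.34 to 4.53, 1119 calls) in the control. There the first window, from 64479001, was at 41.2% in the TGF-beta library and 3.67% in the control, and the next 2 at 4.79% and 5.99% in the TGF-beta library and 0.440% and 2.55% in the control. As unweighted means over sites, the run on chromosome 5 differed by 0.625 points, that on chromosome 9 by 3.50 points, and the one on chromosome 7 by 12.2 points, so the size of these differences depended on how calls were weighted. Of the other runs of 4 windows, some were higher in the TGF-beta library and some were not. Those not higher included a run on chromosome 28 and the following pair, picked after their values were seen. The run at 34240001 to 34244000 on chromosome 9 stood at 1.15% (0.628 to 1.91, 1222 calls) in the TGF-beta library and 1.31% (0.679 to 2.28, 916 calls) in the control. That at 28001 to 32000 on chromosome 10 stood at 14.3% (12.4 to 16.3, 1295 calls) in the TGF-beta library and 19.4% (17.5 to 21.3, 1772 calls) in the control.

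Inside the windows the sites were uneven. The median standard deviation of site levels within a window was 28.2 percentage points in the TGF-beta library and 26.1 in the control. Among 59061 sites with 10 or more calls in both libraries, 51.8% in the TGF-beta library and 59.3% in the control were under 10%. Sites at 70% or more made up 13.6% in the TGF-beta library and 9.38% in the control. At equal calls per site in both libraries these shares were 51.8% and 13.7% in the TGF-beta library and 59.3% and 9.40% in the control. The control calls chose the windows, so the lower site levels in the control were partly set by the rule. In the 4612 windows that met the rule in each library, these shares at equal calls were closer. They were 63.5% and 8.31% in the TGF-beta library and 65.4% and 7.37% in the control. Every kept site was under 30% in 948 windows (12.6%) in the TGF-beta library and in 1267 (16.8%) in the control. At least 1 site was at 70% or more in 4698 windows (62.3%) in the TGF-beta library and in 3982 (52.8%) in the control. Low windows thus mostly held nearly unmethylated sites beside some methylated ones, and only the smaller part was uniformly low.

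The TGF-beta library was not used to choose the windows, apart from the minimum of calls, and most of them were also low in it. Their median level there was 22.3% (quartiles 12.0 and 33.3), against 19.5% (quartiles 10.6 and 25.4) in the control. By the mean of site levels the medians were 24.8% in the TGF-beta library and 20.9% in the control. In the TGF-beta library 5141 windows (68.2%) were under 30%, 541 (7.17%) were at 50% or more and 95 (1.26%) at 70% or more. The share at 50% or more was 26.9% when the windows were chosen on the plus strand and read on the minus strand, and 3.62% among windows under 20% in the control. The choice by strand set no minimum of calls per strand. For comparison, 1.72% of all windows that met the rule apart from the level were under 30% in that library, and their median was 91.3% in the TGF-beta library and 90.6% in the control. Of the CpG-dense low windows, 94.7% were under 30% in the TGF-beta library, and of the CpG-poor ones in 100 kb windows under 70%, 79.3%. These sets are not matched: the CpG-dense windows had a control median of 2.89% over a median of 62 kept sites. The CpG-poor ones in 100 kb windows under 70% had 19.9% over 7.

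**Figure D3:**
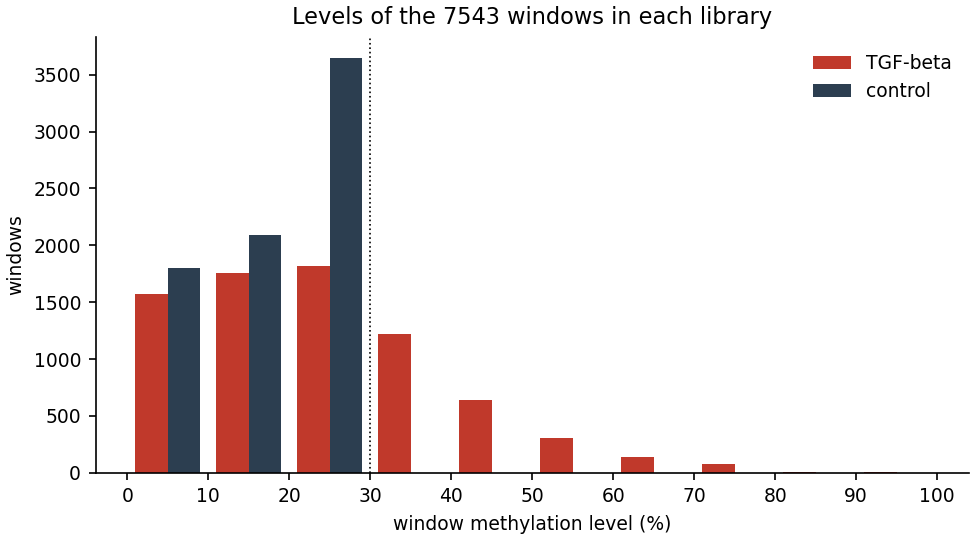
Number of the 7543 low windows by methylation level in classes of 10 percentage points; red bars are TGF-beta, dark bars control, and the dotted line marks the 30% below which the control level had to lie. The control bars end at 30% by the rule, and 5141 windows lie below it in TGF-beta.

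The lower a window was in the control, the more often it was low in the TGF-beta library. Of 965 windows under 5% in the control, 95.5% were under 30% in the TGF-beta library, with a median of 3.84%. Of 2038 windows between 25% and 30% in the control, 43.6% were, with a median of 31.9%. The number of listed sites made less difference: the share was 66.7% in windows of 5 to 7 listed sites and 69.9% in windows of 17 to 19. It was 68.1% where the 100 kb window was between 70% and 75% in the control, and 67.6% where it was at 85% or more. Windows at 50% or more in the TGF-beta library made up 5.13% and 10.5% of these 2 classes. At the level limit, 825 windows between 28% and 30% in the control had a median of 33.5% in the TGF-beta library, and 957 windows just outside, between 30% and 32%, had 34.6%. At the 100 kb limit, 1092 windows between 70% and 72% had a median of 23.9% in the TGF-beta library, and 1190 windows between 68% and 70% had 23.7%. Windows with 19 and 20 listed sites had medians of 21.0% and 20.4% there, and those with 2000 and 1000 bp to the nearest dense window 22.1% and 22.4%.

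The direction of the difference between the libraries followed the library that chose the windows. Chosen on the control, the windows had a median difference, TGF-beta minus control, of 3.59 points (quartiles -1.70 and 12.5), and 5017 of 7543 were higher in the TGF-beta library. With the same rule applied to the TGF-beta library, 7632 windows had a median of 19.7% in the TGF-beta library and 22.2% in the control, a difference of -2.97 points (quartiles -11.0 and 2.30). With the rule applied to the mean of both libraries' levels, 6889 windows had a median of 18.7% in the TGF-beta library and 18.8% in the control, a difference of 0.146 points (quartiles -5.52 and 5.96). Its sign differed between chromosomes, with 24 of 38 above 0 and a range of -1.71 to 2.00 points. By the mean of site levels, the median differences were 2.92 points when the control chose, 0.976 when the mean of both libraries chose and -0.515 when the TGF-beta library chose. The sign of the difference thus depended on the library that chose the windows, and its size on that library and on how sites were weighted.

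Both rules took 4612 windows, which is 61.1% of those chosen on the control and 60.4% of those chosen on the TGF-beta library. In these the median was 15.7% in either library by summed calls, with a median difference of 0.173 points. By the mean of site levels it was 18.6% in the TGF-beta library and 17.1% in the control, with a median difference of 0.945 points. Of the 2931 other windows chosen on the control, 2402 were at 30% or more in the TGF-beta library. The other 529 were under 30% there but lay in a 100 kb window under 70%.

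Reads of opposite strands come from separate molecules, so windows were also chosen on calls of 1 strand and read on the other. Chosen on the plus strand of the control, 9874 windows had a minus-strand median of 30.0% in the TGF-beta library and 25.3% in the control, and a median difference of 2.86 points. Chosen on the plus strand of the TGF-beta library, 10409 windows had a minus-strand median of 28.8% in the TGF-beta library and 30.8% in the control, and a median difference of -0.0579 points. With the strands exchanged the median differences were 2.91 and 0 points. On the strand not used, the sets chosen on the control were thus still higher in the TGF-beta library, whereas those chosen on the TGF-beta library had a median difference near 0. A low level on 1 strand was often not met on the other. Of the windows chosen on the plus strand of the control, 18.3% were at 50% or more on its minus strand. No minimum of calls per strand was set there, so few calls could choose or read a window. Of the windows chosen on both strands together, 6190 had 20 or more calls on each strand in both libraries. In these the strands differed by a median of 9.52 points in the TGF-beta library and 7.56 in the control. The gap was 20 points or more in 23.5% of them in the TGF-beta library and 16.9% in the control. The rule capped the control level but not the TGF-beta level, so the smaller gap in the control was partly set by it.

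**Figure D4:**
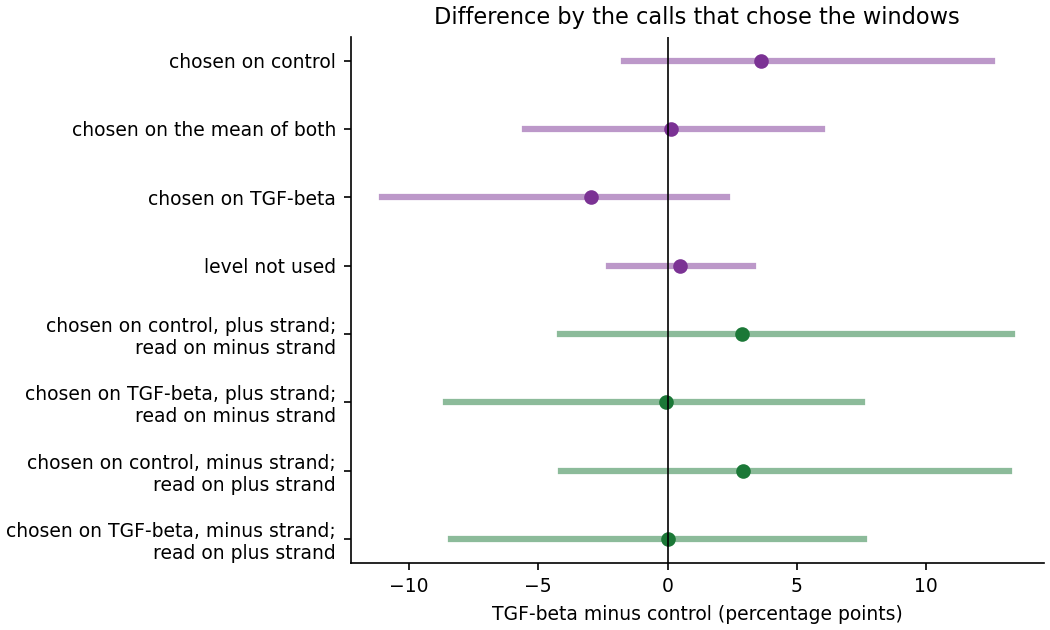
Median (points) and quartiles (bars) of the difference in window level, TGF-beta minus control, in percentage points, for windows chosen by different calls; purple rows use calls of both strands and green rows use calls of the strand that did not choose. By summed calls the median is 3.59 points when the control chose, 0.146 when the mean of both libraries chose and -2.97 when TGF-beta chose.

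Single windows that differed between these libraries were counted with Fisher's exact test on calls, run over all 1497941 windows with Benjamini-Hochberg adjustment. Calls needed an adjusted p under 0.05 and at least 20 points of difference, and they compare these libraries, not the conditions. Of the 7543 windows, 1083 (14.4%) were called higher in the TGF-beta library, against 2.22% of all windows tested and 1.42% of those that met the rule apart from the level. Lower calls numbered 31 (0.411%), against 1.43% of all windows tested and 1.19% of those that met the rule apart from the level. Since the control calls chose the windows, and a window under 20% cannot be lower by 20 points, nothing is read from these shares. Chosen on the TGF-beta library, 54 windows (0.708%) were called higher and 751 (9.84%) lower. Chosen on the mean of both, 336 (4.88%) were called higher and 243 (3.53%) lower. Of the 1083 windows called higher, 894 were higher by 10 points or more on each strand.

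The windows named next had 10 or more kept sites, 100 or more calls in each library and, for gains and falls, at least 10 points on each strand with the same sign. Only sites listed on both strands entered that check by strand. The largest gain was on chromosome 2 from 9183001 to 9184000, at 88.2% (85.1 to 90.9, 502 calls) in the TGF-beta library and 22.1% (16.1 to 29.0, 172 calls) in the control. Its first 10 sites, between 9183094 and 9183224, were at 71.4% to 100% in the TGF-beta library and at 0% to 14.3% in the control, where each had 10 calls or fewer. Its 2 last sites, at 9183742 and 9183786, were at 100% in the TGF-beta library and at 92.3% and 56.2% in the control, so the control dip covered most of the window and the TGF-beta library had none.

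The second gain was on chromosome 9 from 32108001 to 32109000, at 94.5% (93.1 to 95.7, 1306 calls) in the TGF-beta library and 29.9% (26.0 to 34.2, 501 calls) in the control. Outside that window, adjacent kept sites from 32105867 to 32106121 went the other way. They were at 1.78% to 52.4% in the TGF-beta library and at 72.1% to 93.3% in the control. The last of these gains was on chromosome 37 from 13190001 to 13191000, at 70.1% (66.8 to 73.3, 777 calls) in the TGF-beta library and 7.78% (5.59 to 10.5, 501 calls) in the control. Its 12 kept sites lay between 47.4% and 100% in the TGF-beta library and between 0% and 23.7% in the control, without overlap. As unweighted means over sites, these gains came to 72.2, 62.2 and 64.0 points.

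A called fall from under 30% must end under 10% by the rule, so the low end of the following falls was fixed by how they were chosen. The window on chromosome 35 from 20382001 to 20383000 stood at 2.26% (1.04 to 4.25, 398 calls) in the TGF-beta library and 29.1% (24.2 to 34.4, 323 calls) in the control. Of its 13 kept sites, 10 were at 0% in the TGF-beta library, and all 13 were between 5.00% and 59.4% in the control. The window on chromosome 15 from 3441001 to 3442000 stood at 2.50% (1.21 to 4.55, 400 calls) in the TGF-beta library and 28.4% (23.4 to 33.8, 303 calls) in the control. The methylated control calls there lay in the first 7 kept sites, at 24.2% to 55.3%, and the last 5 were at 0%. The window on chromosome 7 from 66007001 to 66008000 stood at 4.37% (2.47 to 7.11, 343 calls) in the TGF-beta library and 28.0% (21.3 to 35.6, 164 calls) in the control. As unweighted means over sites, these falls came to -24.1, -18.9 and -23.2 points.

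**Figure D5:**
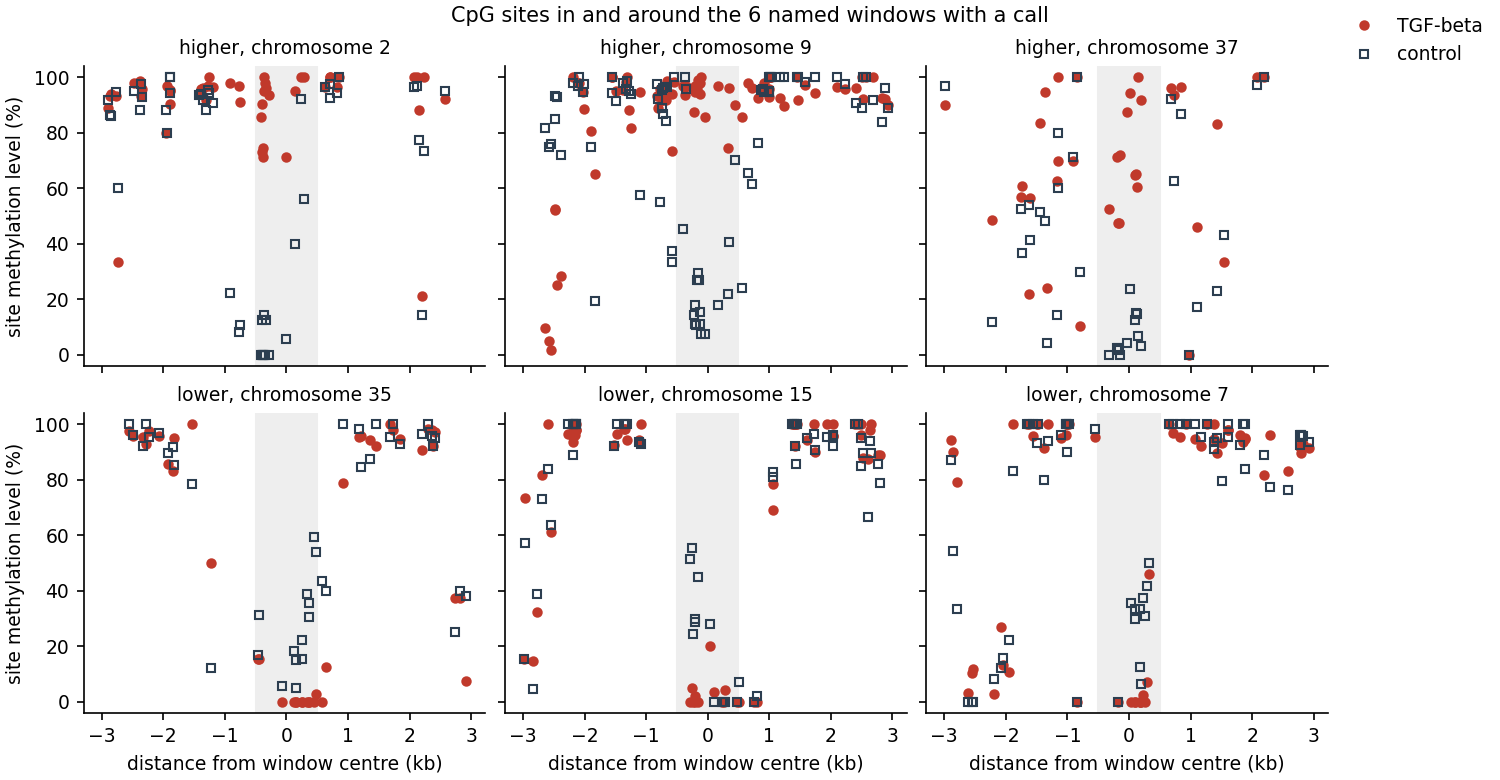
Methylation level (%) of single kept CpG sites within 3000 bp of the centre of the 6 named windows that were called, by distance in kb; filled red circles are TGF-beta, open dark squares control, and grey marks the window. In the upper row the dip at the window is seen in the control and the windows are at 70.1% to 94.5% in TGF-beta. Outside the window on chromosome 9, a group of sites is lower in TGF-beta than in the control. In the lower row the windows are at 2.26% to 4.37% in TGF-beta and 28.0% to 29.1% in the control.

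The lowest windows held no methylated call in either library. On chromosome 24 from 31344001 to 31345000 there were 0 of 361 calls in the TGF-beta library (upper bound 1.02%) and 0 of 116 in the control (upper bound 3.13%). Its 14 kept sites all lay between 31344001 and 31344087, with 5 to 12 control calls each. The values there cover 1 edge of the window, and calls of sites this close can share reads. On chromosome 10 from 38025001 to 38026000 there were 0 of 297 in the TGF-beta library (upper bound 1.23%) and 0 of 171 in the control (upper bound 2.13%). On chromosome 25 from 40220001 to 40221000 there were 0 of 241 in the TGF-beta library (upper bound 1.52%) and 0 of 167 in the control (upper bound 2.18%). Those on chromosomes 24 and 10 belonged to CpG-richer unmethylated stretches, with 57 sites over 2606 bp and 163 sites over 7397 bp in both libraries. The window on chromosome 25 had 22 sites over 1339 bp in the TGF-beta library and 15 over 1121 bp in the control.

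The low windows were spread over all 38 autosomes. They made up between 1.36% (chromosome 30) and 2.22% (chromosome 34) of the windows that met the rule apart from the level. Their share was 2.58% in 100 kb windows between 70% and 75% in the control and 0.987% in those at 85% or more. It was 2.03% among windows of 5 to 7 listed sites and 1.55% among those of 17 to 19. By distance to the nearest dense window it was 2.10% under 5000 bp and 1.56% at 100000 bp or more. The median level per chromosome ranged from 19.2% to 26.4% in the TGF-beta library.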

How the data were processed

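The deposited values are raw counts of methylated and unmethylated calls per listed CpG cytosine, 1 line per strand. The submitters' processing notes name Bismark, Bowtie 0.12.8 and canFam3, but the labels' extraction protocol names SOAPaligner2. Duplicate removal, quality filters and mate overlap are not stated in these sources, and calls repeated from 1 molecule would make intervals too narrow. The methylated column was recognised from mitochondrial DNA, which is almost free of it. The single line per file without a chromosome was left out (6 calls in TGF-beta, 12 in the control). Joining adjacent cytosines gave 25888236 sites, of which 90.6% had both strands listed. The other sites were single cytosines, which were kept but gave no calls to the readings by strand. Longer runs of an odd number of adjacent cytosines could not be paired and were left out, with 0.00656% of calls. The filter of 5 calls left 22984712 sites, with a median of 38 calls in the TGF-beta library and 22 in the control. A dense window counted as within 2000 bp when it overlapped the window extended by that length on each side. Groups follow the labelled agent. Fisher's exact test was checked on simulated data.

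Versions were numpy 2.4.6, scipy 1.17.1, numba 0.67.0, pandas 2.3.3 and matplotlib 3.10.9 under Python 3.11.15. Named windows were the 3 largest gains, the 3 largest falls, the 3 lowest pooled levels and the 3 longest runs (ties by most kept sites), within the limits given beside them. The windows and these rules were chosen with earlier results of these data known. Alternatives changed the coverage minimum, the weighting of sites, each limit of the rule, the window grid, the strand, the depth and the library that chose the windows. Genes and sequences of the windows are not analysed here.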

Additional observations from a re-analysis of the deposited data

How the results depend on the processing

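No paired analysis was possible because each group has 1 library, and none could be left out. A value was taken as moved when it left the 95% interval of the reported one, by binomial counting over the 7543 windows, or when a count changed by over 1.5 times. Shifting the windows by 500 bp, asking for no dense window within 5000 bp, and leaving out chromosomes 3, 6, 7 and 25 (951 windows) or 38 windows of very high depth moved none of the 8 results. For each other setting the values that moved follow, as the median TGF-beta level, the share under 30% in TGF-beta, the median difference, and the shares called higher and lower.

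With 10 calls per site the median was 21.8%, the share under 30% was 69.4% and 13.5% were called higher. With the unweighted mean of site levels the median was 22.8%, the share 72.4%, the difference 3.10 points, and 10.4% and 0.225% were called. With a control level under 20%, 3892 windows had a median of 13.8%, a share of 83.5% and a difference of 3.25 points, and 0% could be called lower by construction. With the 100 kb window at 80% or more, 3014 windows had a median of 21.4%, a difference of 4.11 points and 18.1% called higher. With TGF-beta calls thinned to the control depth the share was 71.2%, the difference 3.05 points and 11.3% were called higher. Chosen on the plus strand and read on the minus strand, the median was 30.0%, the share 49.8%, the difference 2.86 points, and 11.9% and 2.61% were called. That setting had no minimum of calls per strand.

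The remaining alternatives were chosen after seeing the data. Chosen on the mean of both libraries, the median was 18.7%, the share 87.2%, the difference 0.146 points, and 4.88% and 3.53% were called. Chosen on the TGF-beta library, the median was 19.7%, the share 100% by construction, the difference -2.97 points, which reverses its sign, and 0.708% and 9.84% were called. Leaving out the first 100 kb of each chromosome moved none of the 8 results. The median width of the low stretch in the control ranged from 460 to 723 bp, except for 246 bp on the minus strand alone. The share at 50% or more in TGF-beta was 5.35% with unweighted site levels, 3.62% under 20% in the control, 9.52% in 100 kb windows at 80% or more, 26.9% on the minus strand, 5.66% with thinned calls, 0.0726% chosen on the mean of both and 0% by construction chosen on TGF-beta. The median depth was 27.8 control calls per kept site.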

Other observations

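Low windows were far more frequent at the starts of some chromosomes. In the first 100 kb of the 38 autosomes 129 of 712 windows that met the rule apart from the level were low (18.1%), against 1.69% elsewhere. They lay on 13 chromosomes, with a median of 18.9% in the TGF-beta library and 18.2% in the control. The first 100 kb of chromosome 15 held 25 of them, with a median of 19.3% in the TGF-beta library and 20.3% in the control. The first 100 kb of chromosome 5 held 22. The first 100 kb of chromosome 34 held 19, with a median of 25.1% in the TGF-beta library and 18.2% in the control. Those of chromosomes 10 and 28 held 17 each. Their medians were 15.4% and 16.9% in the TGF-beta library and 21.1% and 17.8% in the control. Over the 129 windows at chromosome starts, depth was close to that of the other low windows. It was 36.0 calls per kept site in the TGF-beta library and 28.3 in the control. These windows were picked out after their values were seen, and 1.71% of the low windows lay there.

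Away from chromosome starts, 11 of the 100 kb windows held 9 or more low windows, and their medians differed between the libraries in both directions. On chromosome 9 from 34300001 to 34400000, 12 low windows had a median of 0.819% in the TGF-beta library and 0.265% in the control, and 11 of them form the longest run. On chromosome 38 from 17400001 to 17500000, 12 had a median of 22.1% in the TGF-beta library and 19.5% in the control. On chromosome 31 from 26000001 to 26100000, 10 had a median of 8.31% in the TGF-beta library and 15.02% in the control. Another 8 held 9 low windows each, and 5 of these had the higher median in the TGF-beta library. The one on chromosome 1 ran from 102500001 to 102600000 and had a median of 14.0% in the TGF-beta library and 18.3% in the control. On chromosome 2 from 9100001 to 9200000, 9 had a median of 25.9% in the TGF-beta library and 13.0% in the control, and the window with the largest gain is among them.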
